A study of Mus musculus with 24 samples.

Results

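The REST and KAISO motif constructs were 4 of the 62 constructs read in each of 5 pools of mouse cells. They were picked out by construct name, with earlier results of these data known. Each construct carried either the WT binding motif or a scrambled (Sc) version of it at the centre of FR1, a bacterial DNA fragment that was placed by cassette exchange at 1 site of the β-globin locus. The pools were C57BL/6 X 129S5 embryonic stem cells (mESCs) that received unmethylated FR1 (ESC −SssI), the same cells with FR1 methylated in vitro by the CpG methyltransferase M.SssI (ESC +SssI), neuronal progenitors (NPs) made from both kinds of cells by aggregation and retinoic acid (NP −SssI and NP +SssI), and C57BL/6 X 129/sv mESCs with a triple knockout of TET1, TET2 and TET3 that received methylated FR1 (TET TKO +SssI). TET TKO cells therefore differed from the other mESCs in strain as well as in genotype, and no unmethylated insert was read in them. The same 3 cell types, without regard to insert, had RNA-Seq libraries, 3 of each.

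REST is a zinc finger repressor that binds the RE1 element and keeps neuronal genes silent outside neurons. It recruits CoREST, SIN3A and histone deacetylases, and sites that it occupies in mESCs are known as regions of reduced DNA methylation. KAISO, the product of Zbtb33, is a BTB/POZ zinc finger protein that binds methylated CpGs as well as an unmethylated consensus, and it recruits the NCoR corepressor. TET enzymes oxidize 5-methylcytosine, a first step of active demethylation.

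Methylation was read by amplicon bisulfite sequencing at 18 CpGs upstream of the motif (positions −291 to −32, counted in bp from the 5′ end of the motif), at 5 CpGs downstream (37 to 252) and at CpGs inside the motif, of which REST had 1 and KAISO had 2. FR1 is bacterial, so these positions have no mouse coordinate. A pool summed 3 to 9 sequencing runs, which the labels do not tie to separate cultures. For each CpG, Δmet was the methylation percentage of the WT fragment minus that of the Sc fragment, and the mean over CpGs is followed by ± the distance to either end of its 95% interval. All intervals cover counting error only. A CpG was called lower or higher when Δmet reached 10 percentage points and Fisher's exact test, adjusted by the Benjamini-Hochberg method over the 616 CpGs of all 26 motifs in the pool, was below 0.05. A hypomethylated region (HMR) was a run of at least 3 CpGs called lower that spanned over 50 bp. All 4 constructs passed the minimum of 10 reads at every CpG in every pool. Their shallowest values were those of the REST Sc fragment in ESC −SssI, with a median of 34 reads, and of the KAISO Sc fragment in TET TKO +SssI, with a median of 40 reads.

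In ESC −SssI, where FR1 entered the genome unmethylated, the REST WT fragment had a mean methylation of 11.5% and the Sc fragment of 57.8%. The mean Δmet over 24 CpGs was −46.3 ± 13.8 percentage points. The CpG inside the WT motif was methylated in 0 of 216 reads (upper 95% Wilson limit 1.75%), against 18 of 54 reads, or 33.3% (22.2% to 46.6%), in the scrambled one. All 5 downstream CpGs of the WT fragment stood at 0% as well. Of the 24 CpGs, 19 were called lower (79.2%) and 0 higher, whereas 48.4% of all CpGs tested in this pool were called lower and 23.7% higher. The largest difference was at −101, where the WT fragment had 2.44% and the Sc fragment 97.1%. At 37 and 46 both fragments stood at 0%, so no difference could appear there. The called CpGs formed 2 HMRs, from −291 to −211 and from −148 to the motif CpG, with mean Δmet values of −35.2 and −65.4 points. Compared within runs, no HMR was found in this pool. The one from −291 to −211 was also lost without run 1 and with runs of like composition counted once. Run 4 held most reads of both fragments. Within that run the upstream CpGs averaged 14.6% in the WT and 52.9% in the Sc fragment, and the downstream CpGs 0% and 31.6%. No comparison could be made without run 4.

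In ESC +SssI, where the insert was methylated before it entered the cells, the REST WT fragment averaged 11% and the Sc fragment 63.4%. This WT level was the lowest among the 26 motifs. All 24 CpGs were called lower (100%), against 50.2% of CpGs tested in the pool, and 0 were called higher, against 12.2%. They formed a single HMR of 543 bp that ran from −291 to 252, that is, over the whole of the measured fragment. Within runs the HMR split into 2, from −275 to −187 and from −84 to 252. Without run 4 it split into 3, of which the last ended at the motif CpG, but the downstream CpGs could not be compared there. Mean Δmet was −52.4 ± 6.74 points. The motif CpG had 2.96% methylation in 304 WT reads (1.57% to 5.53%) and 43.3% in 580 Sc reads (39.3% to 47.3%). Its neighbours at −32 and 37 were at 3.07% and 6.52% in the WT fragment, and at 56.3% and 66.9% in the Sc fragment. The difference was largest at 109, with 9.63% against 91.2%, and smallest at −178, with 29.3% against 56.4%.

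The single runs of this pool differed in the level of both fragments. Upstream, the WT fragment had 0.654% in run 3, 27.2% in run 6 and 7.25% in run 4. The Sc fragment had 44.1% in run 3, 45.8% in run 6 and 83.4% in run 5. In run 4 the downstream CpGs averaged 10.3% in the WT fragment and 97.3% in the Sc fragment, which rested on a median of 22 reads. In each part of the fragment, the WT values lay below the Sc values. Compared within runs, mean Δmet was −41.7 ± 10.3 points.

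In NPs the REST Sc fragment was close to full methylation and the WT fragment was methylated in part. The Sc fragment averaged 93.4% in NP −SssI and 93.2% in NP +SssI, each the fourth highest Sc fragment of 26. The WT fragment averaged 47.9% and 54.2%. Mean Δmet was −45.4 ± 5.54 points in NP −SssI, the lowest of the 26 motifs, and −39.0 ± 3.74 points in NP +SssI. Called lower were 23 of 24 CpGs in NP −SssI (95.8%, against 31.3% of CpGs in the pool) and 21 of 24 in NP +SssI (87.5%, against 36.2%). None of the 24 was called higher in either pool, where the shares over all CpGs were 13.5% and 10.4%. Each pool gave an HMR from −211 to 252, with 19 CpGs over 463 bp. Within runs it was the same in NP −SssI, whereas in NP +SssI 12 CpGs were called lower and the HMR ran from 109 to 252 only, with 3 CpGs over 143 bp. Both fragments of NP +SssI had at least 10 reads upstream in run 1 only, with a median of 22 WT reads. Downstream this held in run 2 only, with a median of 13 Sc reads. In NP −SssI the downstream CpGs of both fragments had at least 10 reads in run 9 only. Without run 9 they could not be compared, and the HMR of NP −SssI ended at the motif CpG.

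The motif CpG was almost free of methylation in these NPs. It was methylated in 9 of 908 WT reads in NP −SssI (0.991%, interval 0.522% to 1.87%) and in 38 of 1707 WT reads in NP +SssI (2.23%, 1.63% to 3.04%). The scrambled motif had 94.3% of 159 reads and 86.0% of 931 reads. With −93.3 points, this was the largest difference among the 18 motif CpGs of all motifs in NP −SssI. In NP +SssI, with −83.8 points, it ranked 2.

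Around the motif, methylation of the WT fragment did not rise evenly with distance in NPs. The nearest CpGs were much more methylated than the motif CpG, with 56.2% at −32 and 52.6% at 37 in NP −SssI, and with 67.9% and 72.3% in NP +SssI. Further out lay second low points, which were picked out after their values were seen. In NP −SssI these were −101 with 10.5% and 151 with 4.76%, and in NP +SssI −90 with 15.9% and 151 with 8.53%. Further out the WT fragment had 92.6% in NP −SssI and 91.2% in NP +SssI at −235, and 84.4% and 71.6% at 252. At −291, the outermost CpG upstream, it was again lower, with 41.7% and 65.0%. Over the 24 CpGs the WT profiles of both NP pools had a Pearson correlation of 0.94, given as a description because neighbouring CpGs share reads. The same correlation between ESC −SssI and ESC +SssI was 0.61. The Sc fragment shared the low value at 151, with 55.6% in NP −SssI and 61.0% in NP +SssI. Upstream in NP −SssI it had 44.2% at −148 and stood at 100% at 15 of 18 CpGs (within 1 point).

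Single runs gave close values for the WT fragment in NPs. Upstream it had 52.8%, 49.8% and 52.9% in runs 9, 10 and 2 of NP −SssI. It had 57.0%, 62.1%, 61.4% and 57.8% in runs 9, 10, 1 and 2 of NP +SssI. The construct counts of runs 9, 10 and 2 in NP −SssI showed no difference beyond sampling noise (chi-square p at least 0.059 for each pair). Neither did those of runs 9 and 2 in NP +SssI (chi-square p = 0.887), so the runs of each set may be repeats of 1 library. Counted once, mean Δmet was −45.5 ± 8.92 points in NP −SssI and −38.5 ± 4.11 points in NP +SssI. Across the wild-type pools, 9 runs held at least 10 reads of both REST fragments in some amplicon. The WT mean was below the Sc mean in all 20 of their amplicon and motif values, by 18.7 to 99.3 points. These values were not independent of each other. Motif values share reads with the amplicons, and runs 9, 10 and 2 of NP −SssI, which may be repeats of 1 library, are counted separately.

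In TET TKO +SssI the REST WT fragment was highly methylated. It averaged 89.4% and the Sc fragment 81.8%, so that mean Δmet was 7.68 ± 9.03 points, an interval that includes 0. The motif CpG was methylated in 234 of 293 WT reads, or 79.9% (74.9% to 84.1%), and in 157 of 204 Sc reads, or 77.0% (70.7% to 82.2%). A single CpG, −32, was called lower (77.8% against 93.5%), where 21.3% of all CpGs in the pool were. Called higher were 10 CpGs (41.7%, against 22.9% in the pool), 7 of them in a row from −242 to −166 and the largest at 252 with 98.2% against 71.0%. This count depended on the Sc fragment used as reference. It was 3 of 23 CpGs against the mean of all Sc fragments and 2 of 23 against the fragment without a motif. No HMR was found. All upstream reads of both fragments came from run 10. At the motif CpG, the WT and Sc fragments had 80.8% and 100% in run 9, 82.4% and 68.4% in run 10, and 71.4% and 77.3% in run 11. The order of the fragments thus changed between runs.

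Of the 5 contrasts between pools for REST, the one between TET TKO and wild-type mESCs had the largest mean. Mean Δmet was 60.1 ± 11.4 points higher in TET TKO +SssI than in ESC +SssI, and all 24 CpGs were called in that direction by a z test of the difference adjusted over all motifs, where 67.9% of all CpGs were called in either direction. The WT fragment was 78.5 points higher in TET TKO cells and the Sc fragment 18.3 points higher. At the motif CpG the difference was 43.2 points (adjusted p = 9.2e-22, z test). These pools had no run number in common, and reads with non-CG methylation were not filtered out in TET TKO cells. Genotype, strain, run and read filter therefore cannot be told apart in this contrast.

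The methylation state of the insert was compared next. In mESCs, mean Δmet with the methylated insert minus that with the unmethylated insert was −6.13 ± 15.5 points, an interval that includes 0, and the 12 CpGs called were split, 6 in each direction, with 62.5% of all CpGs called. The WT fragment itself differed by −0.509 points between these pools. In NPs Δmet differed by 6.43 ± 6.87 points between inserts, with 17 CpGs called (62.8% of all CpGs) and 14 of them with a higher Δmet for the methylated insert. From mESCs to NPs the mean Δmet differed by 0.873 ± 15.2 points for the unmethylated insert, while the WT and Sc fragments were more methylated in NPs, by 36.4 and 35.6 points. The single CpGs moved in both directions, 8 each (71.3% of all CpGs were called), the motif CpG by −60.0 points (adjusted p = 8.6e-19) and 252 by 66.5 points. For the methylated insert, mean Δmet was 13.4 ± 7.77 points closer to 0 in NPs. Of 20 CpGs called (64.3% of all CpGs), 14 went towards 0 and 6 away from it. The motif CpG was among the latter, with −43.5 points, while −242 moved by 54.8 points. At the motif CpG the WT fragment was near 0% in both cell types, and the change lay in the Sc fragment. From mESCs to NPs, WT went from 0% to 0.991% and Sc from 33.3% to 94.3% with the unmethylated insert. With the methylated insert, WT went from 2.96% to 2.23% and Sc from 43.3% to 86.0%. Within runs the mean difference for the methylated insert was 4.27 ± 16.6 points, without run 4 of ESC +SssI −0.850 ± 11.8 points and without run 5 3.22 ± 9.12 points.

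For KAISO, the WT fragment was more methylated than the Sc fragment in ESC −SssI, with means of 77.0% and 40.9%, and mean Δmet was 36.0 ± 12.2 points. Of 25 CpGs, 21 were called higher (84.0%, against 23.7% in the pool) and 0 lower, against 48.4%. The 2 CpGs inside the WT motif had 81.3% (78.3% to 84.0%) and 82.6% (79.6% to 85.2%) in 707 reads, against 43.9% (35.9% to 52.2%) and 32.4% (25.2% to 40.5%) in 139 Sc reads. The next CpG upstream, −32, had 90.8% against 37.0%, and the next downstream, 37, had 29.9% against 25.3%, which was not called. The largest difference was at −178, with 96.4% against 28.3%.

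The 2 KAISO fragments of this pool were read mostly in different runs. The WT reads upstream came mainly from runs 5 and 1, with 81.7% in both, and the construct counts of these runs showed no difference beyond sampling noise (chi-square p = 0.658). The Sc reads came from run 4, with 40.7%. In run 4 itself the WT fragment had 67.9% upstream on a median of 13 reads, 50% at the motif CpGs and 25.6% downstream, where the Sc fragment had 41.7%. Compared within this run alone, mean Δmet was 17.3 ± 19.7 points, which includes 0, with 13 CpGs called higher and 6 lower. The Sc fragment was also low for its kind, with 40.9% where the 26 Sc fragments averaged 57.3% ± 17.5 (SD). Against the fragment without a motif, which had 60.3%, the KAISO WT fragment was 16.3 ± 11.1 points higher. Without run 4 no comparison could be made.

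In ESC +SssI the KAISO fragments had means of 68.8% in the WT and 72.7% in the Sc fragment. Mean Δmet was −3.97 ± 6.82 points. Called lower were 6 of 25 CpGs (24.0%, against 50.2% in the pool) and called higher 2 (8%, against 12.2%). The first motif CpG had 71.9% and 71.2%, and the second 62.4% and 51.9% (adjusted p = 7.7e-04, Fisher's exact test). The 3 CpGs from 109 to 252 were all lower and formed an HMR with a mean Δmet of −15.1 points. It was not found against the mean of all Sc fragments, against the fragment without a motif, without run 3 or without run 4. Within runs it ran from 46 to 252, with a mean of −34.3 points. Without run 5 the HMRs ran from −208 to −84 and from 1 to 151, with means of −54.3 and −36.6 points. The largest difference of a single CpG, −24.7 points, was at −211. Nearly all upstream WT reads came from run 5, with 72.5%. In run 4 the WT fragment had 35.3% upstream on a median of 12 reads, and 26% at the motif CpGs, where the Sc fragment had 77.9%. Without run 5, mean Δmet was −39.2 ± 20.5 points and 19 CpGs were called lower.

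In NPs both KAISO fragments were highly methylated. In NP −SssI the WT fragment averaged 93.7%, the highest of the 26 WT fragments, and the Sc fragment 87.4%. Mean Δmet was 6.36 ± 5.62 points. Called higher were 10 of 25 CpGs (40.0%, against 13.5% in the pool) and lower 3 (12%, against 31.3%). The upstream CpGs compared fragments of different runs. There the WT fragment had at least 10 reads only in runs 11 and 8, and the Sc fragment only in runs 9, 10 and 2. Both fragments reached this depth in run 9 only, at the motif and downstream CpGs, with medians of 23 and 22 WT reads. The second motif CpG had 99.1% of 351 WT reads and 82.7% of 497 Sc reads, whereas the first had 95.2% and 94.4%. The largest difference was at 151, with 90.9% and 57.0%. This mean did not hold when runs of like composition were counted once (6.39 ± 7.57 points), against the mean of all Sc fragments (3.59 ± 4.11 points) or without run 9, 11 or 2. In NP +SssI the WT fragment averaged 89.4% and the Sc fragment 92.8%, with a mean Δmet of −3.42 ± 4.06 points. There, 5 CpGs were called lower (20%, against 36.2% in the pool) and 2 higher (8%, against 10.4%). The motif CpGs had 93.9% and 90.5% in the WT fragment, and 99.4% and 96.0% in the Sc fragment. The largest difference was at −84, with 97.0% and 63.3%. No HMR was found for KAISO in either NP pool.

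In TET TKO +SssI the KAISO WT fragment averaged 97.5% and the Sc fragment 83.5%. Mean Δmet was 14.1 ± 9.07 points. Called higher were 17 of 25 CpGs (68.0%, against 22.9% in the pool) and 0 were called lower, against 21.3%. The first motif CpG had 87.7% and 87.9%, and the second 98.6% and 82.0%. Upstream, all reads of both fragments came from run 10, with 88 WT and 40 Sc reads in the median. The Sc fragment had the same level of 77.5% at 9 of its 18 upstream CpGs. Neighbouring CpGs share reads, so calls at these CpGs were not independent of each other. The lowest value of the Sc fragment was 41.0% at −187, where the WT fragment had 98.9%. Downstream, the WT and Sc fragments both had 99% in run 9, 99.2% and 85.1% in run 10, and 98.7% and 83.3% in run 11, so the difference was seen in 2 of 3 runs. At the motif CpGs the WT and Sc fragments had 52.3% and 76.2% in run 9, the opposite order, 95.8% and 85.7% in run 10, and 98.3% and 86.9% in run 11.

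Between pools, the mean Δmet of KAISO differed in 4 of 5 contrasts. ESC +SssI minus ESC −SssI gave −40.0 ± 14.0 points, with 20 of 25 CpGs called, all in that direction (62.5% of all CpGs were called in either direction). Between those pools the WT fragment differed by −8.19 points and the Sc fragment by 31.8 points. NP −SssI minus ESC −SssI gave −29.7 ± 13.7 points, with 15 CpGs called in that direction (71.3% of all CpGs in either), and there the Sc fragment differed by 46.4 points. Both contrasts use the ESC −SssI pool. Within runs the first was −16.8 ± 23.7 points and the second, from 7 CpGs, 20.5 ± 21.2 points, so that neither passed and the second changed its sign. NP +SssI minus NP −SssI gave −9.78 ± 7.14 points with 18 CpGs called (62.8% of all CpGs), 15 of them lower with the methylated insert, and it was −0.934 ± 4.97 points against the mean of all Sc fragments. NP +SssI and ESC +SssI differed by 0.553 ± 8.07 points, with 12 CpGs called (64.3% of all CpGs), 6 in each direction, and by 35.8 ± 21.0 points without run 5 of ESC +SssI. TET TKO +SssI was 18.0 ± 11.8 points above ESC +SssI, with 16 CpGs called (67.9% of all CpGs), 14 of them upwards. The shares of CpGs called for KAISO were thus below those over all motifs in 3 of the 5 contrasts. Within runs the contrast of TET TKO +SssI with ESC +SssI was 13.6 ± 16.1 points, and here too the pools had no run number in common.

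Side by side, the REST Δmet ranked 4, 4, 1 and 3 from the lowest of 26 motifs in ESC −SssI, ESC +SssI, NP −SssI and NP +SssI, and 20 in TET TKO +SssI. The KAISO Δmet ranked 24, 19, 24, 14 and 24 in the same order. In the wild-type pools, run values of both KAISO fragments put the WT fragment lower in 12 and higher in 11 of 23 cases.

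Both factors were expressed in all 3 cell types. Rest (chromosome 5, 77265491 to 77286432, GRCm38) had 75.1, 74.6 and 71.7 RPKM in the mESC libraries, 9.66, 11.8 and 8.97 in NPs, and 73.0, 81.0 and 66.7 in TET TKO mESCs. All NP values lay below all others, and mESCs and TET TKO cells overlapped. The log2 fold change in NPs was −2.95 ± 0.12 (SE, adjusted p = 8.8e-07, edgeR quasi-likelihood test), where 22.3% of the genes tested were called at 3-fold and an adjusted p under 0.001. In TET TKO cells its log2 fold change was 0.05 ± 0.11 (adjusted p = 0.72, edgeR), where 2.18% of genes were called. Zbtb33 (chromosome X, 38189793 to 38197046) had 5.65, 5.80 and 4.29 RPKM in mESCs, 6.93, 7.70 and 11.5 in NPs, and 2.65, 3.95 and 3.03 in TET TKO cells. Its log2 fold changes, 0.64 ± 0.22 in NPs (adjusted p = 0.033) and −0.65 ± 0.21 in TET TKO cells (adjusted p = 0.043, edgeR), were not called. In these bulk libraries, fewer cells with a transcript and less transcript per cell cannot be told apart.

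Over all genes tested, 22.3% were called in NPs and 2.18% in TET TKO cells. Of the REST partners Rcor1, Sin3a, Hdac1, Hdac2, Kdm1a and Ehmt2, 0 of 6 were called in either comparison, as were 0 of 3 KAISO partners (Ctnnd1, Ncor1, Hdac3). At an adjusted p under 0.05 without the fold limit (edgeR), 5 and 2 of them differed in NPs, where 64.1% of all genes did, and 4 and 1 in TET TKO cells, where 33.7% did. Of the KAISO-like proteins Zbtb4 and Zbtb38, which also bind methylated CpGs, Zbtb4 was called, with 0.348 ± 0.01 RPKM in mESCs and 1.87 ± 0.51 in NPs (SD, n = 3; adjusted p = 6.9e-05, edgeR). Zbtb38 had 2.30 ± 0.09 RPKM in mESCs and 0.887 ± 0.21 in NPs, with a log2 fold change of −1.47 (adjusted p = 2.0e-04, edgeR), under the 3-fold limit. The knocked-out genes left reads in TET TKO cells: Tet1 had 66.7 RPKM in mESCs and 12.3 in TET TKO cells, Tet2 had 19.4 and 2.25, and Tet3 had 0.733 and 0.499. In NPs, 4 of 4 stem cell markers (among them Pou5f1 and Nanog) and 4 of 4 progenitor markers (among them Pax6 and Nes) were called down and up. Of all genes tested there, 22.3% were called in either direction. Markers of endoderm (Gata6, Sox17 and Foxa2, 3 of 3) and of neurons (Map2 and Dcx, 2 of 3) were also called up there, and their part in the NP methylation values was not tested. Foxa2 had a mean of 0.171 RPKM in mESCs and 10.9 in NPs, and Dcx of 0.00238 and 8.24. In TET TKO cells, 1 of 4 stem cell markers was called down: Zfp42, with 312 RPKM in mESCs and 46.1 in TET TKO cells (log2 fold change −2.70, adjusted p = 7.8e-05, edgeR). None of the 2 progenitor markers tested was called there, where 2.18% of all genes tested were. Nes had 4.11 and 9.91 RPKM (log2 fold change 1.33, adjusted p = 0.0057, edgeR). The part of these differences in the TET TKO methylation values was not tested.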

How the data were processed

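The members, gene lists and tests were chosen with earlier results of these data known. For the amplicons, the authors trimmed reads with Trim Galore 0.4.4, assigned them to constructs with 0 mismatches, aligned them with Bismark 0.20.0 and removed duplicates by molecular identifier. Reads with non-CG methylation were filtered out except in TET TKO cells. The deposited tables hold counts of reads and of methylated reads for each CpG, construct and run. Runs were summed here. WT was compared with Sc in each pool, and Δmet between pools in 5 contrasts, at CpGs with at least 10 reads. Standard errors had 1 methylated and 1 unmethylated read added per fragment, and the interval of a mean used the mean standard error over CpGs, since CpGs share reads. Differences between pools were tested by a z test per CpG. The largest and smallest differences, the motif CpGs, their neighbours and the ends of HMRs were named.

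For RNA-Seq, the authors deposited counts per gene from STAR 2.6.1b and featureCounts 1.6.2, not split by strand, so overlapping genes cannot be separated. The mESC and NP libraries held 20519702 to 23976914 counted reads and the TET TKO libraries 80704741 to 93210102. Depth thus differed together with genotype. Of 51912 gene IDs, 51633 had a symbol. Genes with at least 1 RPKM in 1 library of the 2 groups compared were tested with edgeR 4.0.16 (TMM, quasi-likelihood), and called at a fold of 3 and an adjusted p under 0.001. The 3 RNA-Seq libraries of a group are biological replicates by the study's methods, which do not say how the cultures were kept apart. RPKM used the deposited gene lengths. DESeq2 1.42.0, other normalizations and filters, coverage minimums, other reference fragments, comparisons within runs and the leaving out of each run or library were tried as alternatives. The scripts, in Python 3.11.15 with scipy 1.17.1 and R 4.3.3, were tested on simulated data. Tables of single cell lines, of siRNA experiments and of percentages were not used.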

Additional observations from a re-analysis of the deposited data

Results flagged for a closer look

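Mean Δmet differed between pools by a test of the difference itself in 6 of 10 contrasts. For REST, TET TKO +SssI exceeded ESC +SssI by 60.1 points and NP +SssI exceeded ESC +SssI by 13.4 points. For KAISO, the differences were −40.0 points between ESC +SssI and ESC −SssI, −29.7 points between NP −SssI and ESC −SssI, −9.78 points between NP +SssI and NP −SssI, and 18.0 points between TET TKO +SssI and ESC +SssI. Leaving out single runs gave 44.5 to 73.8 points for the first of these. Its pools had no run number in common, so this range cannot separate genotype from run. The other 5 differences each lost their call or changed sign under an alternative. For REST, NP +SssI minus ESC +SssI was −0.850 points without run 4 of ESC +SssI. For KAISO, the differences within runs were −16.8 ± 23.7 points between the ESC pools, 20.5 ± 21.2 between NP −SssI and ESC −SssI and 13.6 ± 16.1 between TET TKO +SssI and ESC +SssI, and the difference between the NP pools was −0.934 ± 4.97 against the mean of all Sc fragments.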

How the results depend on the processing

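The REST Δmet kept its sign and its call in all 5 pools under each alternative that gave a value, from −48.3 to −33.3 points in ESC −SssI, −61.6 to −38.0 in ESC +SssI, −47.9 to −39.9 in NP −SssI, −39.9 to −30.0 in NP +SssI and 0.516 to 8.82 in TET TKO +SssI, where no alternative made a call. Of the alternatives for Δmet, 129 of 142 kept sign and call, as did 179 of 208 for differences between pools, and the cause of the changes below was not tested. The intervals of Δmet were widest in ESC −SssI, with ± 13.8 points for REST and ± 12.2 for KAISO. The HMRs also changed with the setting, and some of these changes are given beside each. Against the mean of all Sc fragments, the REST HMR ran from −291 to 252 in ESC −SssI and from −178 to 252 in NP +SssI. Against the fragment without a motif, REST HMRs ran from −291 to −235 and from −208 to 252 in ESC −SssI. In NP +SssI they ran from −187 to −32 and from 46 to 252. With at least 50 reads, 1 CpG remained for REST in ESC −SssI, so that value is a single CpG. Without run 4 no value could be had for either motif in ESC −SssI.

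Within runs, Δmet of KAISO was 17.3 points in ESC −SssI and 0.457 in ESC +SssI. The difference between pools was −8.57 points for REST between NP −SssI and ESC −SssI and 4.27 between NP +SssI and ESC +SssI. For KAISO it was −16.8 between the ESC pools, 20.5 between NP −SssI and ESC −SssI, −3.10 between NP +SssI and ESC +SssI and 13.6 between TET TKO +SssI and ESC +SssI. For REST, 1 CpG was called higher in ESC +SssI, and 12 were called lower and 2 higher in NP +SssI. For KAISO, 6 were called lower and 13 higher in ESC −SssI, 5 higher in ESC +SssI, 1 lower and 5 higher of 7 in NP −SssI, 3 lower and 1 higher in NP +SssI, and 1 lower in TET TKO +SssI. With look-alike runs counted once, the REST difference between NP −SssI and ESC −SssI was −4.37 points and the KAISO Δmet in NP −SssI 6.39.

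Against the mean of all Sc fragments, Δmet of KAISO was 0.941 points in ESC +SssI, 3.59 in NP −SssI and 2.66 in NP +SssI. The REST difference was −11.1 points between the ESC pools and 9.86 between the NP pools, both then called, and the KAISO difference between the NP pools was −0.934. For REST, 3 CpGs were called higher in TET TKO +SssI, and for KAISO 1 lower in ESC −SssI, 3 lower in ESC +SssI, 4 higher in NP −SssI and 1 lower in NP +SssI. Against the fragment without a motif, Δmet of KAISO was 5.69 points in ESC +SssI, 2.45 in NP −SssI and 1.49 in NP +SssI. The REST difference between the NP pools was 9.83, and the KAISO differences were −10.6 between the ESC pools, −0.962 between the NP pools, −4.20 between NP +SssI and ESC +SssI and 2.90 between TET TKO +SssI and ESC +SssI. For REST, 3 CpGs were called lower and 2 higher in TET TKO +SssI. For KAISO, 13 were called higher in ESC −SssI, 0 lower and 4 higher in ESC +SssI, 5 higher in NP −SssI, 1 lower in NP +SssI and 11 higher in TET TKO +SssI.

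With at least 20 reads, the REST difference between NP −SssI and ESC −SssI was −0.00054 points, and with at least 50 reads −60.0, with 1 CpG called lower in ESC −SssI and 6 KAISO CpGs called higher in TET TKO +SssI. As a share of all methylated calls, the REST difference between the NP pools was 8.17 points. With a Δmet of at least 20 points, 0 REST CpGs were called lower and 4 higher in TET TKO +SssI, and of KAISO 2 were called lower and 0 higher in ESC +SssI, 1 lower and 5 higher in NP −SssI, 0 lower in NP +SssI and 10 higher in TET TKO +SssI. With no criterion on p, 1 KAISO CpG was called lower in TET TKO +SssI. With the motif CpGs left out, 1 KAISO CpG was called higher in ESC +SssI.

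Leaving out 1 run at a time, Δmet of KAISO ranged from −39.2 to −0.034 points in ESC +SssI and from 5.24 to 7.04 in NP −SssI. The REST difference ranged from −15.3 to 11.8 points between the ESC pools, 5.49 to 9.07 between the NP pools, −4.54 to 1.93 between NP −SssI and ESC −SssI and −0.850 to 22.6 between NP +SssI and ESC +SssI, and the KAISO difference from −3.38 to 35.8 between NP +SssI and ESC +SssI. CpGs called ranged from 0 to 2 (REST, higher, NP +SssI), 0 to 1 and 2 to 11 (REST, lower and higher, TET TKO +SssI), 0 to 1 (KAISO, lower, ESC −SssI), 4 to 19 and 0 to 4 (KAISO, lower and higher, ESC +SssI), 3 to 6 (KAISO, lower, NP +SssI) and 5 to 17 (KAISO, higher, TET TKO +SssI). The values of −39.2, 19 and 35.8 came without run 5 of ESC +SssI, 11.8 and −0.850 without run 4 of ESC +SssI, 9.07 without run 9 of NP −SssI, and the lowest counts in TET TKO +SssI without run 10, which left 6 CpGs for REST and 7 for KAISO.

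For expression, the fall of Rest in NPs was called in 12 of 12 alternatives. The log2 fold change of Rest in TET TKO cells was −0.0051 with library sizes alone, and −0.03 to 0.13 with 1 library left out at a time. At an adjusted p under 0.05 with no fold limit, Zbtb33 was called in both comparisons, with 0.64 and −0.65. With the replicate number as a replicate block, the log2 fold changes of Rest were −2.96 in NPs and 0.05 in TET TKO cells, with no change of call for either gene. Deviations of libraries with the same number correlated at −0.08, 0.00016 and −0.18 for NPs and at −0.13, 0.47 and 0.28 for TET TKO cells. With 3 libraries per group, these values cannot decide whether the numbers pair the libraries. The block moved the genes called in TET TKO cells from 304 to 588, DESeq2 to 929, testing all genes with at least 1 count to 1263, and leaving out 1 library at a time gave 47 (without ESC library 1) to 308. In NPs the count went from 3392 to 5281 with all genes with at least 1 count. At an adjusted p under 0.05 with no fold limit, 9726 genes were called in NPs and 4715 in TET TKO cells.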
